A study of Mus musculus with 6 samples.

Results

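Border-associated macrophages are described here through 10 genes (Mrc1, Cd163, Lyve1, Pf4, Ms4a7, F13a1, Cbr2, Stab1, Folr2 and Maf), taken by gene symbol out of the 24421 symbols listed in each library. All 10 were present and all 10 passed the filter on low values. They were compared between 3 control and 3 Sox9 KO libraries of cells sorted from the mouse olfactory bulb, with 1 library per mouse. The question of the study was what the loss of the transcription factor Sox9 does to astrocytes of the adult olfactory bulb. The cells were sorted as astrocytes, and the 10 genes are known from macrophages, so their levels describe transcripts of a cell type for which the sort was not designed.

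All 6 mice, adult and labelled C57BL/6, had received AAV-GFAP-iCre-P2a-TurboRFP in the olfactory bulb. This adeno-associated virus uses the GFAP promoter, active mainly in astrocytes, to make Cre recombinase and the red fluorescent protein TurboRFP. KO mice carried Sox9 fl/fl, in which Cre removes the floxed exons. Control mice were WT (C57BL/6J, given as Sox9+/+ in the methods), so they carried Cre and the reporter without a floxed allele. After 4 weeks, cells with TurboRFP were collected by FACS straight into lysis buffer.

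Border-associated macrophages live in the meninges, the choroid plexus and the spaces around blood vessels, outside the nervous tissue proper, whereas microglia live within it. They take up proteins, lipids, hyaluronan and haemoglobin complexes from the fluid around them through scavenger receptors and lectins, which is how several of the 10 genes are known. Macrophages of this kind are often told apart by high Lyve1 and Folr2 or by high MHC class II genes, the genes that present antigen to T cells. Microglia share with them the general macrophage genes, such as Csf1r, but usually have little or none of the 10 other than Maf.

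Sox9, the targeted gene, was at a mean of 5556 ± 881 among controls but 58.2 ± 5.88 among KO libraries (normalized counts, SD, n = 3), which follows the labels. The reads on genes ranged from 18242129 to 86906527 per library, and the fewest reads of any of the 10 genes in any library were 145. The methods state that all 6 mice were male, but only control replicate 1 and KO replicate 3 carried reads of 4 Y-linked genes (5753 and 7131 summed reads), with 92.1 and 33.4 normalized counts of Xist. The other 4 libraries had between 45228 and 88344 normalized counts of Xist and 10 or fewer Y-linked reads. Each group thus held 1 library with Y-linked reads and 2 with Xist, and values are given below without the Y-linked libraries wherever this changed a call among the 10.

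The promoters of the genes are shown first, for a pair of genes that rose (Mrc1 and Stab1) and a pair that fell (Pf4 and Cd163), since members of the set moved in opposite directions. Each window runs from 250 bases before to 50 bases after the RefSeq start site (GRCm38.p6) and is printed 5′ to 3′ on the strand of the gene. Capitals mark GAGGAA or its reverse complement TTCCTC, the core letters recognised by PU.1 (Spi1), a factor that macrophages and microglia require. The windows lie at chr2:14229164-14229463 on the plus strand (Mrc1), chr14:31168592-31168891 on the minus strand (Stab1), chr5:90772185-90772484 on the plus strand (Pf4) and chr6:124304401-124304700 on the plus strand (Cd163).
Mrc1: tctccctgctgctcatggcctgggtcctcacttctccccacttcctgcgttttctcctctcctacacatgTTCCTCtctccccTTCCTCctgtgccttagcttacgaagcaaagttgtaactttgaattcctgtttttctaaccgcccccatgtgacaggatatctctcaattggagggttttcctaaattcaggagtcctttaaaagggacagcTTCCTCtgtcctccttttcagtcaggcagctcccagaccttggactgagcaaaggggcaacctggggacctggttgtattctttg
Stab1: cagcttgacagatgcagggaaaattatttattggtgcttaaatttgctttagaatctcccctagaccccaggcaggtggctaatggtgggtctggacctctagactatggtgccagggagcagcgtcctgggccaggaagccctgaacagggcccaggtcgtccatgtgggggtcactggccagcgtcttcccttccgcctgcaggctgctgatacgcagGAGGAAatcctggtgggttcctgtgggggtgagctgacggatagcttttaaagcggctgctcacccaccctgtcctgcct
Pf4: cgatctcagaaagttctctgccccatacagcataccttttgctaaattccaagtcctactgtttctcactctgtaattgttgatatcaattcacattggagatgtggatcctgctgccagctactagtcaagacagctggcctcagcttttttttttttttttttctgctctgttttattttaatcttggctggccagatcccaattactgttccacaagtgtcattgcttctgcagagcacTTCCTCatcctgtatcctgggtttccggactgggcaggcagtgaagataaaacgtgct
Cd163: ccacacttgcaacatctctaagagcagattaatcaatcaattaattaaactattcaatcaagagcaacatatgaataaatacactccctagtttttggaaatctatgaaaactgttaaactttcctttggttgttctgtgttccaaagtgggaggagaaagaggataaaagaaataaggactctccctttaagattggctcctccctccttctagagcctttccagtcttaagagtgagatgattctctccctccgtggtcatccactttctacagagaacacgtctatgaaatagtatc

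Windows were found for 8 of the 10 genes, 11 windows in all, and none for Lyve1 and Maf. The letters GAGGAA, read on both strands, occurred in 7 of the 11 windows and in 28.1% of all 32544 promoter windows of the same length. The 7 windows belonged to 6 of the 8 genes (Cbr2, F13a1, Mrc1, Ms4a7, Pf4 and Stab1). Of these 6 genes, Mrc1, Ms4a7 and Stab1 rose and F13a1 and Pf4 fell, so the letters were present in genes that moved either way. The longer GAGGAAGT, which contains GAGGAA, occurred in 2 of the 11 windows (F13a1 and Pf4) and in 3.11% of all windows. TGCTGA, the half-site of MAF factors, occurred in 4 of the 11 windows (Cbr2, Folr2 and Stab1) and in 19.5% of all windows. The SOX core AACAAT occurred in 2 of the 11 (Ms4a7 and Pf4, 10.6% of all windows) and ACAAAG in 1 (Ms4a7, 18.7%). These matches describe letters in a window and no binding.

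The 10 genes did not move together between control and Sox9 KO. Mrc1, Stab1, Maf and Ms4a7 rose in KO, Lyve1, Pf4, F13a1 and Cd163 fell, and Cbr2 and Folr2 did not pass the test. The called log2 fold changes ran from -2.80 (Lyve1) to 1.98 (Ms4a7), with a median over the 10 of 0.09 beside -0.07 over all genes tested. A gene was called at a Benjamini-Hochberg adjusted p of 0.05 in limma, over the 18413 genes tested, and a fold change of at least 1.5. By this rule 4 genes were called higher and 4 lower, against 22.2% of all genes tested called higher and 28.8% called lower. The 3 KO values lay wholly above the 3 control values for 4 of the 10 (32.4% of all genes tested) and wholly below for 4 (34.7%). Calls were thus common among all genes, and the 4 genes in each direction are read as single genes, not as a property of the set. Of all calls, 43.6% were higher as deposited, 56.5% with quantile normalization, 32.2% with libraries scaled to their totals and 28.5% with the ribosomal RNA gene Rn45s left out of those totals. No call among the 10 turned direction under these scalings. Values are normalized counts (reads divided by 1 size factor per library) unless another scale is named, and fold changes are KO over control on log2(normalized count + 1).

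**Figure D1:**
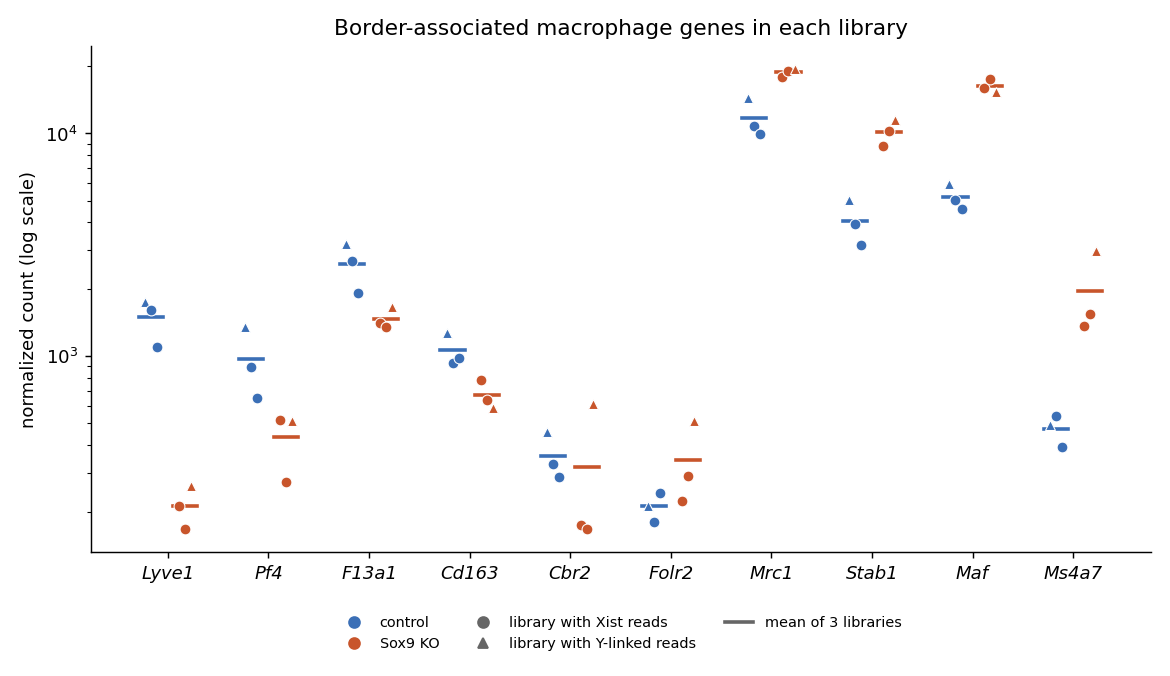
Normalized counts (log axis) of the 10 genes in each of the 3 control and 3 Sox9 KO libraries, with genes ordered from the most negative to the most positive fold change. Points are libraries (triangles carry Y-linked reads, circles Xist) and bars are means. Lyve1 sits between 1099 and 1758 in control and between 167 and 260 in KO, while Maf sits between 4574 and 5949 and between 15292 and 17479.

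Lyve1, a receptor for hyaluronan on macrophages and on lymphatic endothelium, had the largest change of the 10. It lies on chromosome 7 (110850607 to 110863239, minus strand, GRCm38, GENCODE M21). In order of replicate number, the controls had 1758, 1619 and 1099 and the KO libraries 212, 167 and 260. Every KO value was below every control value, with means 7.01 times apart. The log2 fold change was -2.80 (SE 0.21, limma adjusted p = 1.2e-06), and it stayed between -3.12 and -2.56 under every alternative run. Of the other hyaluronan receptors listed, Cd44, a general adhesion receptor, rose from 831 ± 313 to 3162 ± 748 (SD, n = 3; log2 fold change 1.98), and Hmmr, a gene of dividing cells, fell as Lyve1 did, from 196 ± 107 to 26.9 ± 22.3 (-3.20). Of the lymphatic endothelium list, Ccl21a was at 0 in all libraries and Mmrn1 had under 3 normalized counts in each. Prox1, also a gene of some neurons, rose to 755 ± 54.4 from 462 ± 117 (log2 fold change 0.74) and Flt4 had 60.8 ± 13.03 in control and 38.4 ± 11.6 in KO, without passing the test. Prox1 lost its call with total scaling (0.49), with Rn45s left out (0.41) and in the 4 libraries with Xist (0.53). The summed list ranged from 393 to 633 in control and from 746 to 845 in KO.

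Cd163, the scavenger receptor for haemoglobin bound to haptoglobin (chromosome 6, 124304656 to 124330527, plus strand), fell. Its values were 1267, 936 and 985 in control and 782, 638 and 585 in KO. The groups did not overlap, and the log2 fold change was -0.67 (SE 0.15, limma adjusted p = 0.0033). This lay close to the 1.5-fold limit: without control replicate 1 the change was -0.53, without KO replicate 3 it was -0.58, and in the 4 libraries with Xist it was -0.44 (limma adjusted p = 0.043), each time under 1.5-fold. Among genes of haem handling, Hmox1, which breaks haem down, fell from 9955 ± 2436 to 3977 ± 398, while Blvrb, which reduces biliverdin, rose from 366 ± 86.1 to 878 ± 56.2 and the ferritin subunit Fth1 rose from 43582 ± 5075 to 73160 ± 9885 (SD, n = 3). Fth1 lost its call under each of the 3 other scalings and in the 4 libraries with Xist, where its change was 0.55. Slc40a1, the iron exporter, rose with a log2 fold change of 0.73 and lost its call under both total scalings and in the 4 libraries with Xist.

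Mrc1, the mannose receptor CD206, was the most abundant of the 10 per kb of exon in both groups. It lies on chromosome 2 (14229392 to 14332057, plus strand) with the microRNA gene Mir511 inside it on the same strand. Its values were 14496, 10853 and 9973 in control and 17926, 19123 and 19492 in KO. All KO values were above all control values, and the log2 fold change was 0.70 (SE 0.13, limma adjusted p = 0.001). The call depended on the scaling: the change was 0.45 with libraries scaled to their totals, 0.37 with Rn45s left out of those totals and 0.10 with quantile normalization, all under 1.5-fold. Among the other mannose receptor family genes, Mrc2, a collagen receptor of stromal cells, fell from 284 ± 22.3 to 81.2 ± 62.9, Pla2r1 rose from 2.87 ± 2.92 to 35.3 ± 35.4, and Ly75, known from dendritic cells, had 46.2 ± 14.5 and 77.4 ± 23.6 and did not pass the test (SD, n = 3).

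Stab1, stabilin-1, is a large scavenger receptor of macrophages and sinusoidal endothelium that takes up modified lipoproteins and the matrix protein SPARC. It lies on chromosome 14 (31139013 to 31168641, minus strand) and overlaps Nt5dc2 on the opposite strand. Its values were 5008, 3908 and 3165 in control and 8744, 10223 and 11495 in KO. The KO values all lay above the control values, and the log2 fold change was 1.35 (SE 0.16, limma adjusted p = 3.6e-05). Its paralog Stab2, of sinusoidal endothelium, had 11.8 ± 10.7 and 59.5 ± 24.2 (SD, n = 3) and rose by 2.52, a call lost in the 4 libraries with Xist. Sparc, the ligand, itself listed with microglia, fell from 38092 ± 3112 to 22489 ± 6499.

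Folr2, the folate receptor beta of macrophages, is on chromosome 7 (101839988 to 101857194, minus strand) with the antisense gene Gm10602 across it. Its values were 212, 180 and 243 in control and 222, 291 and 512 in KO. KO replicate 1 lay within the control range and KO replicate 3, which carries Y-linked reads, was 1.99 times the mean of the other two KO libraries. The log2 fold change was 0.61 (95% interval -0.01 to 1.23, limma adjusted p = 0.082). Without KO replicate 1 it was 0.87 and called, and in the 4 libraries with Xist it was 0.28 (limma adjusted p = 0.38). edgeR on the recovered reads gave 0.74 (adjusted p = 0.043) and DESeq2 0.69 (adjusted p = 0.037). The tools thus placed Folr2 on different sides of the threshold, and so did the scalings. With quantile normalization Folr2 was called (1.085, limma adjusted p = 0.0043), and with total scaling it was not (0.37, limma adjusted p = 0.33). None of the other folate carriers listed passed the test: Slc46a1 had 445 ± 46.3 and 581 ± 111, Slc19a1 214 ± 28.6 and 232 ± 46.1, and Folr1 5.41 ± 6.34 and 3.43 ± 2.11 (SD, n = 3).

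Pf4, platelet factor 4, is a chemokine stored in platelets and also made by border macrophages (chromosome 5, 90772435 to 90773383, plus strand). Its values were 1350, 897 and 651 in control and 519, 271 and 514 in KO. The groups did not overlap, and the log2 fold change was -1.15 (SE 0.29, limma adjusted p = 0.0064). Its values in the 4 libraries with Xist gave -1.03 (limma adjusted p = 0.028). Ppbp, the neighbouring platelet chemokine, had 7.48 ± 7.57 and 3.47 ± 2.24, and Cxcr3, a chemokine receptor that binds Pf4, had 51.7 ± 30.0 and 72.9 ± 17.6 (SD, n = 3), neither of which passed the test. The summed platelet list, in which Gp9 had the highest count (54.9 ± 5.11 and 59.2 ± 28.8), ranged from 151 to 197 in control and from 161 to 195 in KO. The ranges of the platelet sum overlapped between the groups. Of its 7 tested genes, Treml1 rose and Gp1bb fell.

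F13a1 encodes the A subunit of coagulation factor XIII, an enzyme that cross-links fibrin and that macrophages also make. It lies on chromosome 13 (36867178 to 37050244, minus strand), overlapped by the antisense genes Gm49144 and Gm30489. Its values were 3181, 2679 and 1925 in control and 1408, 1349 and 1667 in KO. Every KO value was below every control value, and the log2 fold change was -0.79 (SE 0.17, limma adjusted p = 0.0021). F13b, the carrier subunit, which the liver makes, was at 0 in all 6 libraries.

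Ms4a7, a membrane protein of the MS4A family that is widely used to separate border macrophages from microglia, rose most of the 10. It lies on chromosome 19 (11321039 to 11336146, minus strand). Its values were 490, 536 and 389 in control and 1372, 1544 and 2964 in KO. The KO values were all above the control values, with means 4.16 times apart and KO replicate 3 at 2.03 times the mean of the other two. The log2 fold change was 1.98 (SE 0.25, limma adjusted p = 6.4e-05) and 1.67 in the 4 libraries with Xist. The family members nearby moved the same way: Ms4a6b, Ms4a6c and Ms4a6d rose with log2 fold changes of 1.73, 1.75 and 1.79 and Ms4a4c with 1.39, while Ms4a4b, at 9.79 ± 4.69 and 28.8 ± 16.6 (SD, n = 3), did not pass the test. Close relatives of this family can share reads, which leaves their separate values uncertain. The call of Ms4a4c was lost in the 4 libraries with Xist.

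Maf, the transcription factor c-Maf, acts in mature tissue macrophages, where it restrains proliferation. It lies on chromosome 8 (115682942 to 115707794, minus strand), with the antisense gene Gm15655 across it. Its values were 5949, 5020 and 4574 in control and 16041, 17479 and 15292 in KO. The groups were far apart, and the log2 fold change was 1.66 (SE 0.11, limma adjusted p = 5.1e-07), the smallest standard error of the 10. Of the small Maf genes, Maff rose (0.99), while Mafg (0.35) and Mafk (-0.19) were not called.

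Cbr2, a carbonyl reductase first known from lung, is on chromosome 11 (120729489 to 120732114, minus strand). Its values were 457, 328 and 287 in control and 174, 167 and 611 in KO. KO replicates 1 and 2 lay below all controls and KO replicate 3 above all of them, at 3.58 times the mean of the other two, so the groups overlapped. The log2 fold change was -0.42 (95% interval -1.38 to 0.53, limma adjusted p = 0.42). Without KO replicate 3 it was -1.03 (limma adjusted p = 0.0039) and in the 4 libraries with Xist it was -0.84 (limma adjusted p = 0.013), both called. Cbr3, a related reductase, fell from 551 ± 109 to 103 ± 11.2, and Cbr1 (-0.43) and Cbr4 (0.16) were not called.

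Strand was a limit for genes with a partner on the opposite strand: whether the counting used it is not given, so reads of F13a1, Stab1, Folr2 and Maf cannot be told apart from those of their partners. Adding a term for the libraries with Y-linked reads left the same counts, 4 genes higher and 4 lower. The within-group order of the genes followed particular libraries. In control, 8 of the 10 were highest in replicate 1, which carries Y-linked reads, and 8 were lowest in replicate 3. In KO, 7 of the 10 were highest in replicate 3, which also carries Y-linked reads. The part of sex-linked reads in this spread was not tested. The 5 genes outside all lists whose pattern over the 6 libraries was most like the mean of the 10 were Fam204a, Vasn, Apopt1, Uty and Kdm5d (Pearson r between 0.960 and 0.967, of 15373 genes ranked), of which Uty and Kdm5d are Y-linked. This likeness is a description over 6 libraries.

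Levels of different genes can be compared only per length of exon. In control, the order per kb was Mrc1 (1848 normalized counts per kb), Pf4 (1340), Maf (629), Lyve1 (511), Stab1 (391), F13a1 (385), Cbr2 (269), Cd163 (195), Folr2 (137) and Ms4a7 (106). Neighbours in that order overlapped between libraries, except that Pf4 lay above Maf and Cd163 above Folr2 in all. In KO the order was Mrc1 (2958), Maf (1974), Stab1 (987), Pf4 (603), Ms4a7 (440), Cbr2 (239), Folr2 (221), F13a1 (219), Cd163 (122) and Lyve1 (72.9). There the neighbours from Pf4 to F13a1 overlapped, and all others were separated. Lyve1 thus went from rank 4 to rank 10 and Ms4a7 from rank 10 to rank 5.

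The ratio of 1 gene to another within a library does not change when the library is multiplied by 1 factor, so each of the other 9 genes was set against Mrc1. Lyve1 came to 12.1%, 14.9% and 11.02% of the Mrc1 count in control and to 1.19%, 0.87% and 1.33% in KO. F13a1 came to 21.9%, 24.7% and 19.3% in control and to 7.85%, 7.05% and 8.55% in KO. These 2 genes had a lower percentage in all KO than in all control libraries, as did Cd163 (mean 9.08% in control and 3.57% in KO) and Pf4 (8.03% and 2.32%).

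Another 3 genes took a larger percentage of Mrc1 in KO. Maf came to 41.0%, 46.2% and 45.9% in control and to 89.5%, 91.4% and 78.5% in KO. Stab1 had means of 34.1% and 53.7% and Ms4a7 of 4.07% and 10.3%. For these 3 and for the 4 with lower percentages, the groups did not overlap, while Cbr2 (3.02% and 1.66%) and Folr2 (1.85% and 1.80%) overlapped. An exact two-sided permutation test of 3 against 3 libraries cannot go below p = 0.1, so no p is given for these ratios. The ratios hold for any scaling by 1 factor per library but not for quantile normalization, for which they were not computed. The share of all genes without overlap was not computed for these ratios. On normalized counts, 32.4% of all genes tested lay wholly higher and 34.7% wholly lower in KO. The ratios are therefore read as single genes, not as a property of the set. Lyve1, Pf4, F13a1 and Cd163 had a lower percentage of Mrc1 in KO, and Maf, Stab1 and Ms4a7 a higher one.

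**Figure D2:**
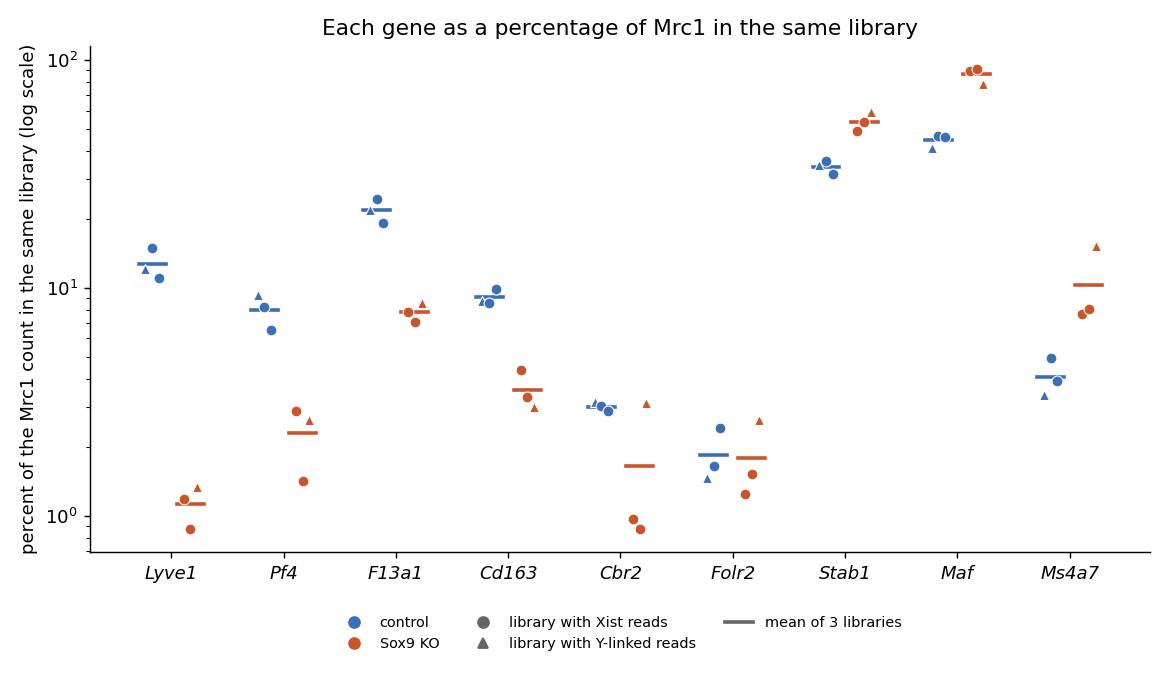
Normalized count of each of the other 9 genes as a percentage of Mrc1 in the same library (log axis), by group; triangles are libraries with Y-linked reads and bars are means of 3. Lyve1 has means of 12.7% in control and 1.13% in KO, Maf 44.4% and 86.4%, and Folr2 1.85% and 1.80%.

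The rise of Mrc1, Stab1, Maf and Ms4a7 went with a rise of genes that all macrophages and microglia share. All 12 genes of the pan-macrophage list were called higher in KO. Their log2 fold changes had a median of 1.94 and ranged from 1.04 (Mertk) to 2.60 (Lyz2), and with quantile normalization 11 were called, without Mertk (0.44). Their sum was between 120422 and 129150 in control and between 469030 and 487113 in KO. The 3 with the highest counts, not divided by length, were Csf1r, the receptor for CSF1 (36390 ± 4827 and 145495 ± 22233, SD, n = 3), Lyz2 (13436 ± 2302 and 81724 ± 19168) and Itgam (22219 ± 2369 and 67394 ± 1592). Homeostatic microglia genes rose as well, 10 of 12, among them P2ry12 and Cx3cr1 (log2 fold changes 1.43 and 2.07), while Sparc fell and Fcrls (0.16) was not called. Their sum was between 160094 and 179296 in control and between 406127 and 489048 in KO. In bulk samples more cells of a type and more RNA per cell cannot be told apart.

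The 10 genes summed to a smaller share of this macrophage signal in KO. Their sum was between 23290 and 34169 in control and between 47400 and 53391 in KO. As a percentage of the summed pan-macrophage genes of the same library they came to 26.5%, 22.4% and 19.2% in control and to 9.73%, 10.9% and 11.1% in KO. The groups did not overlap on this measure, although the summed counts themselves were higher in KO. Not divided by length, the sums mainly follow Mrc1, Maf and Stab1. In control these 3 genes had means of 11774, 5181 and 4027, beside a mean sum of 28138. In KO they had 18847, 16270.5 and 10154, beside 50680. In the fit described next, 84.1% of all genes tested were called lower relative to the pan-macrophage genes. A smaller share is thus not read as particular to the 10.

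The same fit was then run relative to the pan-macrophage genes, by subtracting in each library their mean log2 value from every gene. Here a value of 0 means the same change as the average pan-macrophage gene. On this scale 7 of the 10 were called lower, Lyve1 (-4.71), Pf4 (-3.06), F13a1 (-2.70), Cd163 (-2.58), Cbr2 (-2.33), Folr2 (-1.30) and Mrc1 (-1.21), and none was called higher, by limma with adjusted p-values. Over all genes tested, 84.1% were called lower and 0.826% higher on this scale, with a median of -1.98 beside -1.82 for the 10, so the count of 7 says nothing particular about the set. The count of 0 higher was the same at an unadjusted p of 0.05, in edgeR and in DESeq2, and quantile normalization gave 1, Ms4a7 (0.67). With quantile normalization Folr2 lost its call (-0.33, limma adjusted p = 0.24), which left 6 lower.

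The 3 genes that were not called were Maf (-0.25, 95% interval -0.53 to 0.02, limma adjusted p = 0.077), Ms4a7 (0.07, 95% interval -0.49 to 0.63, limma adjusted p = 0.81) and Stab1 (-0.56, limma adjusted p = 0.0093, under the 1.5-fold limit). Without control replicate 3, KO replicate 2 or KO replicate 3, Stab1 was called, at -0.73, -0.61 and -0.65. It was -0.39 without control replicate 1 and -0.08 (limma adjusted p = 0.68) with microglia genes as the reference. The direction for Ms4a7 turned without control replicate 3 (-0.07), without KO replicate 3 (-0.27) and in the 4 libraries with Xist (-0.23), and that for Maf with microglia genes as the reference (0.23). The values per library, in log2 units from the pan-macrophage mean, were not divided by length and serve only to compare a gene between libraries. Maf was at -0.17, -0.42 and -0.57 in control and at -0.73, -0.45 and -0.74 in KO, ranges that overlap. Lyve1 was at -1.93, -2.05 and -2.62 in control and at -6.96, -7.15 and -6.62 in KO. Mrc1 was at 1.11, 0.69 and 0.56 in control and at -0.57, -0.32 and -0.39 in KO. The groups did not overlap for Lyve1 or Mrc1.

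**Figure D3:**
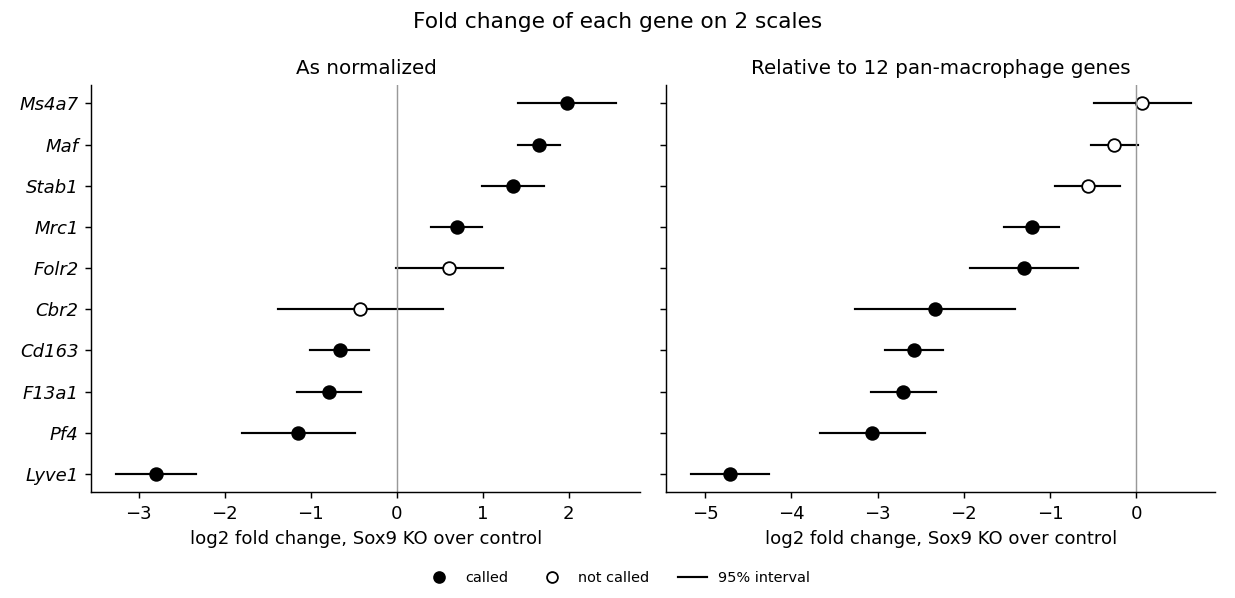
Log2 fold change (KO over control) of each of the 10 genes with its 95% interval from limma, on normalized counts (left) and relative to the mean of 12 pan-macrophage genes (right); filled points were called. Ms4a7 goes from 1.98 on the left to 0.07 on the right and Lyve1 from -2.80 to -4.71.

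Of 25 further genes known from border macrophages, 12 were called higher, 5 lower and 8 neither, with a median log2 fold change of 0.62. Relative to the pan-macrophage genes, 1 was called higher (Ccl8, 1.97) and 17 lower, with a median of -1.29. On that scale 84.1% of all genes tested were called lower and 0.826% higher. Those that fell included 3 lectins of the Cd209 family, Cd209b (211 ± 47.6 to 48.7 ± 10.7), Cd209f (407 ± 67.8 to 174 ± 16.8) and Cd209g (200 ± 54.0 to 92.3 ± 12.1; SD, n = 3). Ednrb, the endothelin receptor B, also fell (-4.14), as did Cd38 (-0.90). Ednrb is also an astrocyte gene, and the 9 astrocyte genes listed all fell. Cd209g lost its call under quantile normalization.

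Among those that rose were Ccl8, a monocyte-attracting chemokine (87.5 ± 63.5 to 1386 ± 1062), Clec12a, an inhibitory lectin (281 ± 44.8 to 1445 ± 462), Lilra5 (175 ± 45.9 to 860 ± 199) and Colec12, a scavenger receptor (436 ± 94.99 to 1324 ± 134). Siglec1, the sialoadhesin of resident macrophages, rose from 1052 ± 289 to 1954 ± 90.9 (SD, n = 3; log2 fold change 0.92). Tgfbi (1.03), Ltc4s (1.62), Wfdc17 (1.34) and Hpgd (0.77) were also called higher, the last of them not under any of the 3 other scalings. Genes that did not pass were Dab2 (0.08), Gas6 (0.26), Clec10a (-0.02), Ccl24 (-0.04), Timd4 (-0.26), Mgl2 (-0.37), Cd36 (0.61) and Clec4n (0.62). In KO, 15 of the 25 were highest in replicate 3, among them Ccl8 at 2534 against 1185 and 438.

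MHC class II genes, which mark another kind of border macrophage as well as dendritic cells and activated microglia, all rose. Cd74, the invariant chain, went from 2521 ± 512 to 89713 ± 37878, and H2-Aa from 1475 ± 284 to 57655 ± 24258 (SD, n = 3). The 5 genes had log2 fold changes between 3.56 (Ciita, their transcriptional activator) and 5.23 (H2-Aa), and all 5 were also called higher relative to the pan-macrophage genes (1.64 to 3.31). Lyve1 and the MHC class II genes thus moved in opposite directions in the same libraries. Folr2, named with Lyve1 above, did not fall with it on normalized counts (0.61, not called). Relative to the pan-macrophage genes Folr2 was called lower (-1.30). Within KO the MHC class II sum was highest in replicate 1 (286704, against 140496 and 151162), not in replicate 3, where 7 of the 10 genes were highest.

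Most of the listed cytokine and growth factor genes were also higher in KO. Of the 12, 11 were called higher, among them the receptors Tgfbr1 (1.74) and Tgfbr2 (1.90) and the glucocorticoid receptor Nr3c1 (1.02). Il34 was lower (-1.49), a call lost with quantile normalization (-0.65). Relative to the pan-macrophage genes 0 were called higher and 3 lower, among them Nr3c1 (-0.89), beside 0.826% and 84.1% of all genes tested. Of the 8 monocyte genes, Itgal (2.87) and Plac8 (1.95) rose and Vcan fell (-2.42). Plac8 lost its call in the 4 libraries with Xist (1.11, limma adjusted p = 0.06) and with total scaling without Rn45s (limma adjusted p = 0.052). Chil3 (234 ± 244 and 404 ± 445, SD, n = 3), Ccr2, Ly6c2 and Ace did not pass the test. Of the 6 dendritic cell genes 3 rose (Itgax, Clec9a and Xcr1), 1 fell (Cd209a) and 2 did not pass the test. Itgax went from 652 ± 292 to 3917 ± 457, Clec9a from 23.7 ± 17.5 to 95.8 ± 16.5, and Cd209a from 252 ± 45.6 to 22.5 ± 30.8. The summed monocyte list ranged from 2439 to 3521 in control and from 2396 to 3250 in KO, and the summed dendritic list from 783 to 1274 and from 3669 to 4703. Vcan made up most of the control monocyte sum and fell from 2175 ± 467 to 407 ± 102 (SD, n = 3). The overlapping monocyte sums therefore do not show that the other monocyte genes stayed the same. Itgax made up most of the mean dendritic sum in both groups, so that sum mainly follows Itgax.

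Markers of cells other than macrophages moved in the same comparison. All 9 astrocyte genes fell, with sums between 446665 and 496752 in control and between 31509 and 40129 in KO, and Slc1a2, Slc1a3 and Aqp4 had log2 fold changes of -4.30, -2.72 and -3.26. Neuronal genes (7 of 8 lower, among them Snap25, Syt1 and Gad1) and oligodendrocyte genes (5 of 5 lower, among them Mbp and Cnp) fell as well. Neutrophil genes were also called lower (3 of 3). By replicate number, their sums were 514, 4082 and 928 in control and 508, 94.3 and 201 in KO. S100a9 overlapped between the groups, and Retnlg lost its call with quantile normalization (limma adjusted p = 0.062). Of 9 blood endothelium genes 2 were higher as deposited (Flt1 and Kdr) and 5 lower (Slco1a4, Ly6c1, Tek, Cldn5 and Emcn). With total scaling, with or without Rn45s, 0 were called higher and 6 lower, and with quantile normalization 2 and 3. Kdr (0.61) and Cldn5 (-0.95) lost their calls in the 4 libraries with Xist (limma adjusted p = 0.1 and 0.053). Of the 9 mural and fibroblast genes 2 were lower (Pdgfrb and Rgs5) and none higher, with Dcn at 559 ± 191 and 351 ± 118. Of the lymphocyte genes Jchain (2.74 ± 1.88 to 814 ± 254) and Cd79b (104 ± 23.9 to 378 ± 136) rose and 6 did not pass, with Cd79a at 29.2 ± 10.6 and 12.9 ± 9.95 (SD, n = 3). The labelled cell type was astrocyte, and its markers were present in both groups. Whether the makeup of the sorted cells differed between the groups was not tested, nor was its part in the values of the 10 genes.

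**Figure D4:**
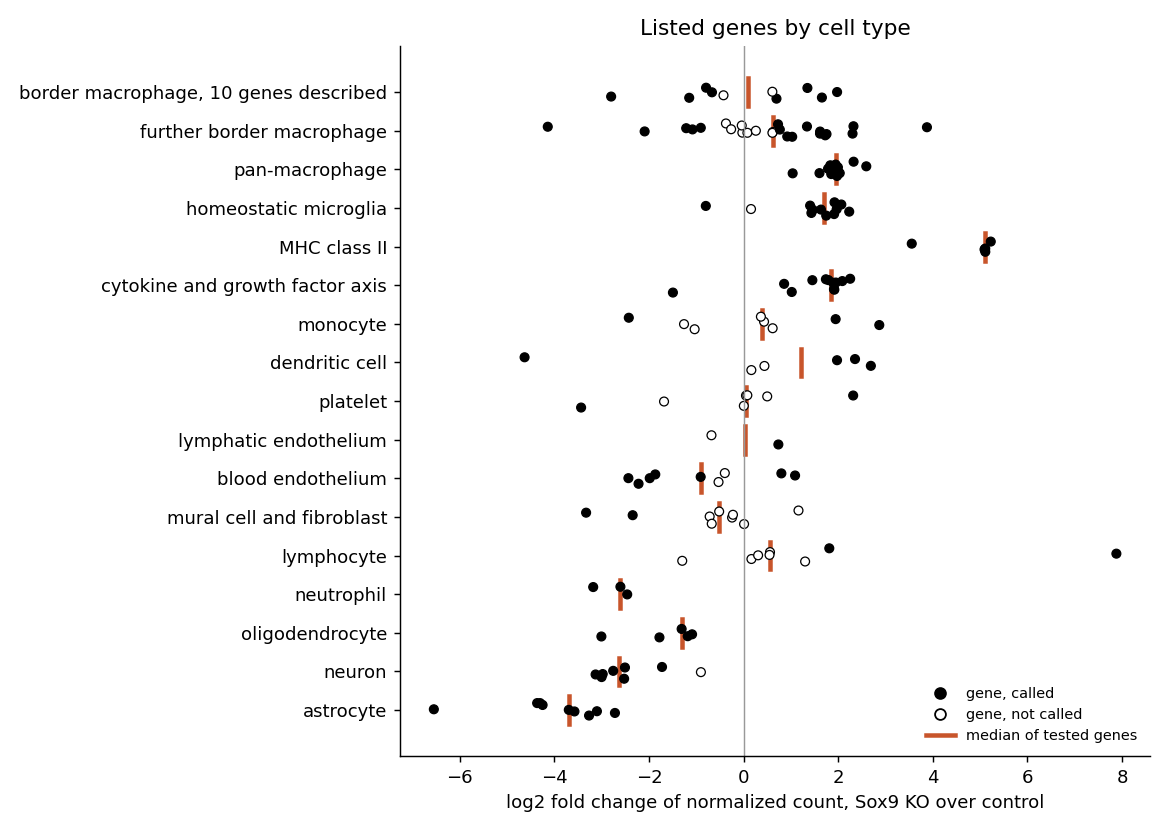
Log2 fold change of normalized count (KO over control) of each tested gene in 17 lists, with the median of each list as a bar and called genes filled. The 10 genes described spread from -2.80 to 1.98 around a median of 0.09, while pan-macrophage genes lie from 1.04 to 2.60 and astrocyte genes from -6.54 to -2.72.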

How the data were processed

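RNA-seq values came from 3 control and 3 Sox9 KO libraries. Per the labels and methods, the authors used STAR 2.5.0a on mm10, GenomicAlignments for counting and DESeq2 1.20.0 for normalization. Not given in the sources used here were annotation, strandedness and the treatment of shared reads. The deposited signal is named RPM. In every library, 100% of it came out as whole reads (tolerance 0.01 read) at a single value per read, so it holds counts divided by a size factor. A read was worth 0.395 to 1.58 normalized counts.

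Of the genes, 18413 had a mean of 1 or more and 6008 were left out. They were tested with limma 3.58.1 under R 4.3.3, taking log2(normalized count + 1), a variance trend, no block and two-sided moderated p-values with Benjamini-Hochberg adjustment. Calls took an adjusted p of 0.05 and a fold of 1.5. The 1.5-fold limit follows the study, which gives a p of 0.05. The recovered reads were also tested with edgeR 4.0.16 and DESeq2 1.42.0. Tests were checked on simulated data. A second fit subtracted the mean log2 value of 12 pan-macrophage genes per library. Replicates are separate mice. Coordinates and exon lengths are from GENCODE M21 (GRCm38, the mm10 sequence) and promoters from RefSeq GRCm38.p6.

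The 10 genes and the 18 lists, from general knowledge, were chosen with earlier results of these data known. Named by rule were the 10, Sox9, any gene of the further border, related and MHC class II lists, up to the 3 with the highest counts of every other list, and the 5 genes most alike over libraries (mean of at least 10). Some listed genes are not reported here by name. Named after their values were seen were Mertk, Sparc, Fcrls, Il34, Plac8, Ccr2, Ly6c2, Ace, Xcr1, Gp1bb, the lymphatic Mmrn1 and Ccl21a, the endothelial genes other than Flt1, Slco1a4 and Kdr, Cd79a, Xist and the 4 Y-linked genes (Ddx3y, Eif2s3y, Kdm5d and Uty). Alternatives changed 1 choice at a time (pseudocount, low-value filter, scaling, trend, replicate block, tool or thresholds) or left out a library. A term for Y-linked reads and a fit of the 4 libraries with Xist were chosen after seeing the data. Of the symbols, 27 are dates and were left as they are.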

Additional observations from a re-analysis of the deposited data

How the results depend on the processing

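Of 190 values of single genes under 19 alternatives, 176 kept their direction and their side of the threshold, 6 lost a call, 7 gained one and 1 reversed, Cbr2 with quantile normalization (0.011). Relative to the pan-macrophage genes, 191 of 200 were kept. There Ms4a7 ran from -0.27 (without KO replicate 3) to 0.32 (without KO replicate 1) when 1 library was left out and reached 0.67 with quantile normalization, where Folr2 lost its call (-0.33). Ms4a7 reversed also without control replicate 3 (-0.07) and in the 4 libraries with Xist (-0.23), and Maf with microglia genes as the reference (0.23). The genes called higher over the whole table came to 2629 with total scaling without Rn45s, against 4090, and quantile normalization called 1 of the 10 higher in the relative fit, against 0. The median log2 fold change of all genes moved with the scaling, from -0.07 as deposited to 0.19 with quantile normalization, -0.29 with total scaling and -0.37 without Rn45s. Leaving out each library in turn gave 4 to 5 of the 10 called higher and 3 to 4 lower, and 7 to 8 lower in the relative fit.

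Replicate numbers are shared between the groups, but libraries with the same number did not deviate together (correlations -0.05, -0.01 and -0.01 over 18413 genes), so they share only a number. With the replicate number as a block, 5 of the 10 were called higher, 4 lower, and 4048 and 5227 of all genes, and Folr2 was called (0.61, limma adjusted p = 0.041). Depth limited the low-count relatives, such as Pla2r1 and Folr1, more than the 10 genes, which had at least 145 reads in every library.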
